A study of Mus musculus with 12 samples.

Results

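In mouse skin, 10 genes of secreted, granule and neuronal proteins were read in every control library, and most of them were at or near 0 counts in most libraries taken after imiquimod. They are Klk1, Klk1b24, Klk1b27, Bpifa6, Fcgbp, Chgb, Insm1, Pcp4, Hamp2 and Chat, 10 of the 33539 genes in the count table. They were taken by symbol, and they had been picked because their counts were high in control skin and low in imiquimod-treated skin, so that difference is given below as a description, with no p-value for any of them. The libraries fell into 3 groups. The first held 4 libraries of Tcn2-deficient mice (Tcn2-/-) with imiquimod-induced, psoriasis-like skin (Tcn2-/- IMQ). The second held 5 libraries of imiquimod-induced skin (IMQ), from mice that the series text calls wild-type. The third held 3 wild-type libraries labelled without imiquimod, called control here. Imiquimod (IMQ) is a Toll-like receptor agonist that brings on psoriasis-like inflammation in mouse skin, and Tcn2 encodes transcobalamin, the plasma carrier of vitamin B12. The deficiency is given as Tcn2-/- with no word on a tissue-restricted deletion, and no strain, age, dose or day of sampling is stated in the sources used here. There was no Tcn2-/- group without imiquimod, so for Tcn2-/- IMQ against control the deletion and the treatment cannot be told apart.

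Tissue kallikreins are secreted serine proteases. Klk1 releases kinin peptides from kininogen, and in the mouse it heads a tandem cluster of close copies, many of them known from the submandibular gland. Fcgbp is a large mucus protein made by goblet cells, and proteins with the BPI fold, the family of Bpifa6, are secreted onto moist epithelia. Chromogranin B (Chgb) is packed in the dense-core granules of endocrine cells and neurons, and the zinc-finger factor Insm1 drives neuroendocrine differentiation. Pcp4 is a small calmodulin-binding protein best known from Purkinje cells, Hamp2 is a second hepcidin gene of the mouse, and Chat makes the transmitter acetylcholine.

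The cluster copies are close in sequence, which bears on how their reads can be told apart, and the promoters below show how alike these genes are. Each is the 250 bases before the RefSeq start on GRCm38.p6, all on the plus strand, at chr7:44225110-44225359 (Klk1), chr7:44187986-44188235 (Klk1b24), chr7:44052040-44052289 (Klk1b27) and chr2:132781392-132781641 (Chgb). Capitals mark a TTTAAA in the kallikrein copies and a TGACGTCA, the cAMP response element, in Chgb.
Klk1: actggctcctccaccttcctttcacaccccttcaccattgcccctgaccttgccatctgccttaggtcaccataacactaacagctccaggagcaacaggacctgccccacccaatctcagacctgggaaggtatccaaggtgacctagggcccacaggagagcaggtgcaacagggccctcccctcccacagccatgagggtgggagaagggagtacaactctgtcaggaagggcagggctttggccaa
Klk1b24: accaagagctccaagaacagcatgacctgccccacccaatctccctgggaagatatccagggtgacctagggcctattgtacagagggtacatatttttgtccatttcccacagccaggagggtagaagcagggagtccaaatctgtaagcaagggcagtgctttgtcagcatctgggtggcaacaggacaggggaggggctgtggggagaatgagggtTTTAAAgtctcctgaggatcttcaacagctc
Klk1b27: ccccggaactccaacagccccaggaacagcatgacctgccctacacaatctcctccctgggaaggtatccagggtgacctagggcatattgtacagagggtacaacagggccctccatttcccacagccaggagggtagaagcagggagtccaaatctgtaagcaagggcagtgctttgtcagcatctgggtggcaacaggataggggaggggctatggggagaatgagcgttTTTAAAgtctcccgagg
Chgb: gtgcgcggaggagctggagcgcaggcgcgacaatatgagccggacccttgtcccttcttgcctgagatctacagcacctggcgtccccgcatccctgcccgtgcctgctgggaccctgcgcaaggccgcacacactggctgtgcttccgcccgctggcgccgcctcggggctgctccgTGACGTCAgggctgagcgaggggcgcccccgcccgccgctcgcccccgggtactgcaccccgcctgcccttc
In alignments of the promoter entries, which also hold the bases just after the start, Klk1b24 and Klk1b27 were identical at 90.0% of aligned positions, against 78.7% for Klk1 and Klk1b24. The TTTAAA began 31 bases before the start of Klk1b24 and 17 bases before that of Klk1b27, and the TGACGTCA began 72 bases before that of Chgb. Of the 10 genes, 9 had a RefSeq promoter entry, and Insm1 is named only. Among all 32851 windows of the same length, read on both strands, 12.1% held TTTAAA, 1.55% held TGACGTCA, 12.4% held the TATA box TATAAA and 16.1% held TGTTCT, the androgen receptor half-site. TATAAA was in none of the 9 windows, TTTAAA was in those of Klk1b24 and Klk1b27, TGACGTCA was in that of Chgb, and TGTTCT was in those of Klk1b24 and Bpifa6. The matches in these windows did not overlap each other. A match describes the letters only.

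The 12 libraries held 16182324 to 18503487 counts, so that 3 counts, used as the floor below, corresponded to 0.165 to 0.185 CPM (the count scaled to library size, with TMM factors). Separate animals are not named for the replicates, so p-values reflect only how these samples varied, in part perhaps for technical reasons. Tcn2 averaged 4.27 CPM in Tcn2-/- IMQ skin and 113 CPM in IMQ skin. The sample titles carry the word muscle while the tissue label is skin, and 12 skeletal muscle genes summed to 8240 to 33700 CPM in Tcn2-/- IMQ, 2830 to 7080 CPM in IMQ and 12300 to 13300 CPM in control libraries. IMQ replicate 1 and control replicates 2 and 3 carried Xist counts, and the other 9 libraries carried Y-linked counts, so sex was unevenly spread over the groups. On the first principal component, control replicate 1 lay apart from its group, at -140 against -24.9 and -17.8. The Tcn2-/- IMQ libraries were split, with replicates 1 and 2 at -34.1 and -98.6 and replicates 3 and 4 at 52.6 and 44.4. Tcn2-/- IMQ replicate 2 and control replicate 1 had the highest shares of mitochondrial counts, 8.08% and 10.3%.

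Klk1 was the highest of the 10 genes in control skin per length of transcript, and it was almost gone after imiquimod. It had 0.0594, 0, 0 and 0 CPM in the Tcn2-/- IMQ libraries, 11.3, 3.7, 0.121, 0 and 0 CPM in the IMQ libraries, and 118, 75.7 and 160 CPM in the control libraries. In raw counts this was 1 read over all Tcn2-/- IMQ libraries, 259 over the IMQ libraries and 6310 over the control libraries. Control libraries thus stood above every other library, while 2 of the 5 IMQ libraries kept a level well over the floor. Klk1 averaged 3.03 ± 4.89 CPM in IMQ skin (SD, n = 5) and 118 ± 41.9 CPM in control skin (SD, n = 3), a log2 difference of -5.28 (SE 1.31). The gene (ENSMUSG00000063903) lies at chr7:43874784-43879042 on the plus strand of GRCm39, at one end of the kallikrein cluster.

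Its tandem copies Klk1b24 and Klk1b27, which encode serine proteases of the same family, were also low after imiquimod. They kept less of their control level than Klk1 did in IMQ replicates 1 and 2. These replicates had 9.59% and 3.14% of the control mean for Klk1, 2.03% and 0% for Klk1b24, and 0.995% and 2.01% for Klk1b27. Klk1b24 (ENSMUSG00000063713, chr7:43837660-43841879, plus strand, GRCm39) had no count in any Tcn2-/- IMQ library, 2, 0, 0, 1 and 0 counts in the IMQ libraries and 88, 65 and 154 counts in the control libraries. Klk1b27 (ENSMUSG00000063177, chr7:43701714-43706136, plus strand, GRCm39) had no count in any Tcn2-/- IMQ library, 1, 2, 0, 0 and 0 counts in the IMQ libraries and 129, 50 and 135 counts in the control libraries. No imiquimod library came near a control library for either gene. Per TMM-scaled library size, Klk1b24 was 160-fold lower in IMQ than in control skin (exact 95% counting interval 54.3 to 781) and Klk1b27 was 164-fold lower (55.5 to 798). Such intervals and all floors cover counting error only. The fold intervals pool the reads of a group and leave out the spread between its libraries. PCR copies of 1 molecule were also counted as separate reads.

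The rest of the cluster, which spans chr7:43600088-43879042, showed which copies this skin carried. Of 14 family symbols listed, 12 had a row, and Klk1, Klk1b21, Klk1b24 and Klk1b27 held 7238 of the 7264 family counts of the control libraries. Klk1b21, a copy outside the 10 genes, had 0 counts in every Tcn2-/- IMQ library, 4, 0, 0, 0 and 0 in the IMQ libraries and 113, 50 and 144 in the control libraries. It fell in IMQ against control skin (log2 difference -6.71, SE 0.99, adjusted p = 0.0223) in the quasi-likelihood test of edgeR, with Benjamini-Hochberg adjustment over 18147 genes. Only its control libraries brought it past the filter on low counts, so this p is no separate support for the 10 genes. The other 8 copies had 1 to 20 counts each over all 12 libraries. Klk1b26 departed from the rest, with 17 counts in Tcn2-/- IMQ, 0 in IMQ and 3 in control libraries. Transcripts of Klk1b24 and Klk1b27 were 93.3% identical and those of Klk1 and Klk1b24 85.0% identical in the reference annotation. Of all 50-base windows of the transcript, 28.4% in Klk1, 32.1% in Klk1b24, 14.3% in Klk1b27 and 29.1% in Klk1b21 also occurred in another copy. The split of reads between copies is therefore uncertain.

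**Figure D1:**
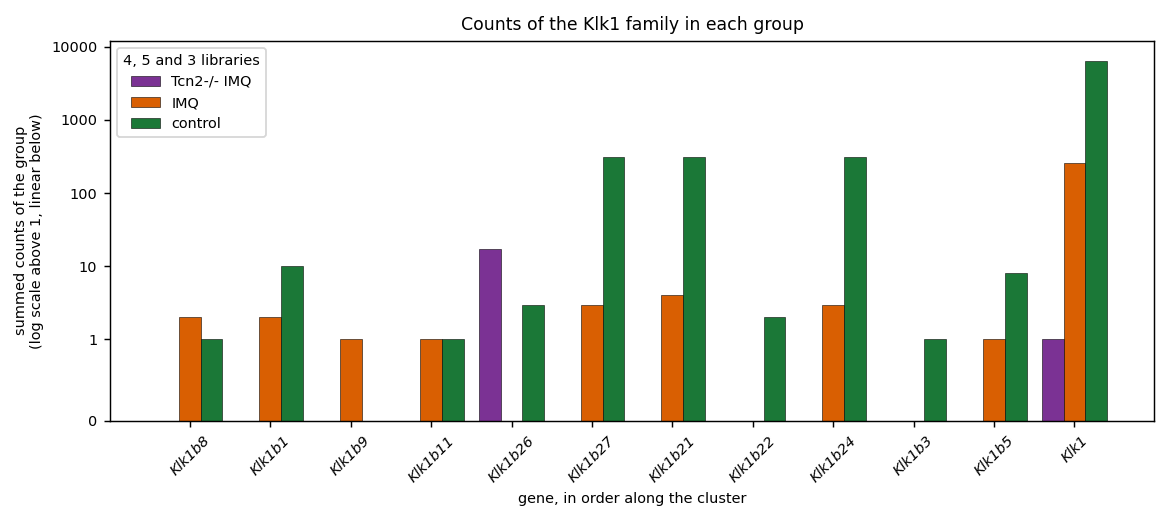
Summed counts of each gene of the Klk1 family (vertical axis, logarithmic above 1 and linear below) in order along the cluster, for the 4 Tcn2-/- IMQ libraries, the 5 IMQ libraries and the 3 control libraries. Klk1, Klk1b21, Klk1b24 and Klk1b27 carry nearly all control counts, and Klk1b26 is the copy with most counts in Tcn2-/- IMQ libraries.

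Among the genes of mucosal secretions, Bpifa6 and Fcgbp behaved differently. Bpifa6 (ENSMUSG00000078998, chr2:153816865-153842415, plus strand, GRCm39) had no count in any Tcn2-/- IMQ library. It had 0, 11, 0, 0 and 0 counts in the IMQ libraries and 33, 106 and 62 counts in the control libraries. All 11 counts after imiquimod thus came from IMQ replicate 2. Bpifa6 averaged 0.129 ± 0.289 CPM in IMQ skin (SD, n = 5) and 3.76 ± 2.08 CPM in control skin (SD, n = 3), a log2 difference of -4.78 (SE 1.22). Of the 10 other Bpif family genes with a row, 7 had no more than 3 counts in any library, and Lbp, which encodes the plasma protein that binds bacterial lipopolysaccharide, was the highest at 110 CPM in Tcn2-/- IMQ, 131 CPM in IMQ and 55.1 CPM in control skin.

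Fcgbp (ENSMUSG00000047730, chr7:27770661-27820287, plus strand, GRCm39) remained present in every imiquimod library. It had 46.1, 93.7, 1.05 and 17 CPM in the Tcn2-/- IMQ libraries, 2.04, 16.7, 7.45, 24.9 and 12.8 CPM in the IMQ libraries, and 230, 261 and 224 CPM in the control libraries. The control libraries were tightly grouped above all others, whereas the Tcn2-/- IMQ libraries spread over both sides of the IMQ libraries. Fcgbp averaged 39.5 ± 40.7 CPM in Tcn2-/- IMQ (SD, n = 4), 12.8 ± 8.74 CPM in IMQ (SD, n = 5) and 238 ± 19.8 CPM in control skin (SD, n = 3). The log2 difference of IMQ against control skin was -4.22 (SE 0.972). The order of the Tcn2-/- IMQ libraries, with replicate 2 highest, then 1, 4 and 3, was also that of Krt77, a keratin of the upper epidermis and sweat ducts (39.1, 52.9, 2.66 and 23.4 CPM in replicates 1 to 4), and of Far2, a fatty acyl reductase of sebaceous cells (1050, 1110, 14.5 and 272 CPM). In the IMQ libraries that order did not hold, since Fcgbp was highest in replicate 4 and Krt77 and Far2 in replicate 2. What these genes share with Fcgbp was not tested.

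The neuroendocrine and neuronal genes Chgb, Insm1 and Pcp4 lay close to the floor in most imiquimod libraries. Chgb (ENSMUSG00000027350, chr2:132623198-132636999, plus strand, GRCm39) had 0, 0, 0.0618 and 0 CPM in the Tcn2-/- IMQ libraries, 0.641, 3.7, 0.0606, 0 and 0 CPM in the IMQ libraries, and 26.2, 25.4 and 24 CPM in the control libraries. Its control libraries differed little, and IMQ replicates 1 and 2 were the only imiquimod libraries above the floor. Chgb averaged 0.881 ± 1.6 CPM in IMQ skin (SD, n = 5) and 25.2 ± 1.12 CPM in control skin (SD, n = 3), a log2 difference of -4.82 (SE 1.17). Insm1 (ENSMUSG00000068154, chr2:146063841-146066940, plus strand, GRCm39) had 2, 0, 0 and 1 counts in the Tcn2-/- IMQ libraries, 6, 19, 0, 1 and 0 counts in the IMQ libraries, and 71, 135 and 120 counts in the control libraries. As for Chgb, IMQ replicate 2 and then 1 were highest after imiquimod, and its log2 difference of IMQ against control skin was -4.28 (SE 1). Pcp4 (ENSMUSG00000090223, chr16:96268806-96326993, plus strand, GRCm39) had 0.297, 0.298, 0.371 and 0.0583 CPM in the Tcn2-/- IMQ libraries, 4.37, 13.7, 0, 0 and 0.12 CPM in the IMQ libraries, and 53.1, 30.6 and 39.4 CPM in the control libraries. Pcp4 kept more of its control level in IMQ replicates 1 and 2 than the other genes did, and its log2 difference of IMQ against control skin was -3.49 (SE 1.33).

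Hamp2 and Chat were low genes even in control skin. Hamp2 (ENSMUSG00000056978, chr7:30621797-30624106, minus strand, GRCm39) had 1, 0, 0 and 0 counts in the Tcn2-/- IMQ libraries, no count in any IMQ library, and 13, 31 and 38 counts in the control libraries. Set against the floor of 3 counts over the IMQ group, it was at least 42.8-fold lower in IMQ than in control skin. Its paralog Hamp, the hepcidin that lowers iron export, had 0 counts in every imiquimod library and 4, 3 and 4 counts in the control libraries. Chat (ENSMUSG00000021919, chr14:32130160-32187946, minus strand, GRCm39) had 29, 5, 4 and 5 counts in the Tcn2-/- IMQ libraries, no count in any IMQ library, and 8, 30 and 30 counts in the control libraries. Chat was thus the one gene that was read in every Tcn2-/- IMQ library while absent from every IMQ library. Tcn2-/- IMQ replicate 1 was within the range of the controls by counts. In CPM it was at their upper end, at 1.72 CPM against 0.44, 1.68 and 1.7 CPM. Against the floor, it was at least 35.5-fold lower in IMQ than in control skin. Chat overlaps Slc18a3, the vesicular acetylcholine transporter, on the same strand, and Slc18a3 had 0 counts in all 12 libraries.

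**Figure D2:**
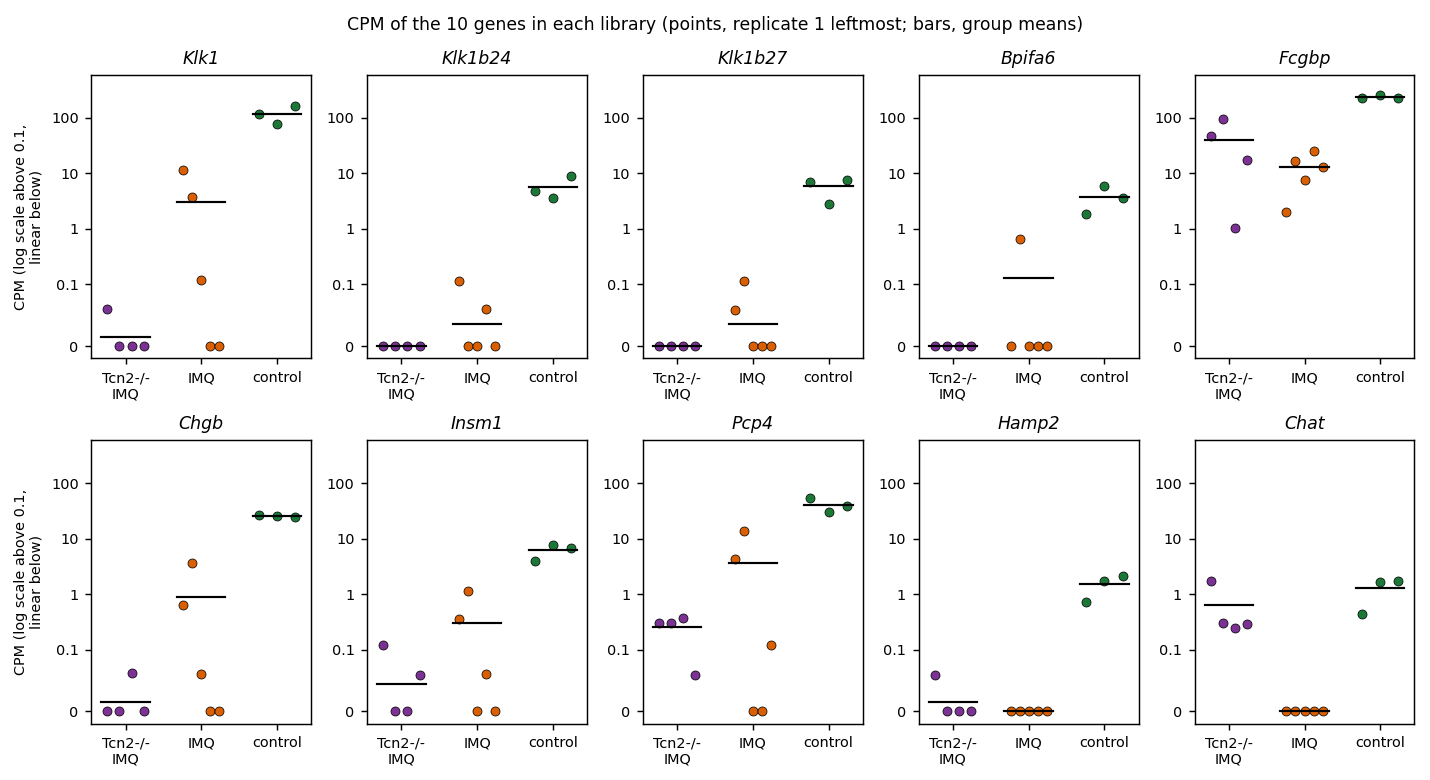
CPM of each of the 10 genes in each library (points, replicate 1 leftmost in a group; bars, group means) for Tcn2-/- IMQ, IMQ and control, on an axis that is logarithmic above 0.1 and linear below. Controls lie above all IMQ libraries in every panel, Fcgbp stays present after imiquimod, and Chat is present in Tcn2-/- IMQ libraries at up to 1.72 CPM but at 0 in IMQ libraries.

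Ordered per kilobase of exon, the mean control level was highest for Klk1 at 109 CPM per kb, followed by Pcp4 at 40.0, Fcgbp at 22.7 and Chgb at 9.21 CPM per kb. The ranges of the control libraries did not overlap between Klk1 (70.2 to 148) and Pcp4 (29.8 to 51.7 CPM per kb), between Pcp4 and Fcgbp (21.3 to 24.8), or between Fcgbp and Chgb (8.77 to 9.57). Klk1b27 at 6.59 and Klk1b24 at 6.54 CPM per kb could not be put in order, and neither could Hamp2 at 2.64, Bpifa6 at 2.39 and Insm1 at 1.97 CPM per kb, since their control ranges overlapped. The range of Klk1b24 (4.16 to 9.96) also overlapped that of Chgb. That of Klk1b27 (3.16 to 8.62) overlapped those of Hamp2 (1.23 to 3.7) and Bpifa6 (1.15 to 3.79 CPM per kb), so these were not ordered either. Chat was lowest at 0.271 CPM per kb. On the chromosomes, 5 of the 10 genes lie on chromosome 7, 3 on chromosome 2, and 1 each on chromosomes 14 and 16.

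In IMQ against control skin the libraries did not overlap for 10 of the 10 genes, against 7.4% of all 18147 genes tested that were lower and 6.79% that were higher without overlap. The test across all genes called 4 of the 10 lower (Klk1b24, Klk1b27, Hamp2 and Chat), against 0.535% of all genes called lower and 1.23% in either direction (0.694% higher), but the genes were picked on this very contrast, so neither count tests them and nothing is read from them. Their median log2 difference was -5.05, or -4.99 with the 4 genes at or near zero counts set to their floor or count ratio, and the median over all genes was 0. All 10 genes passed the filter on low counts, which their control libraries suffice to do. In bulk RNA, fewer cells of a type and less RNA per cell cannot be told apart.

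The IMQ libraries that still carried these genes show how far they went down together. For the 8 genes other than Fcgbp and Chat, the summed counts were 9, 5, 7 and 2 in the Tcn2-/- IMQ libraries, 289, 391, 3, 2 and 2 in the IMQ libraries, and 3930, 2732 and 4435 in the control libraries. IMQ replicates 1 and 2 thus held nearly all that was left, and the set was not carried by control libraries only. These replicates did not keep the genes in equal measure. IMQ replicate 1 kept 9.59% of the mean control level of Klk1, 10.7% of Pcp4, 5.73% of Insm1, 2.54% of Chgb and none of Bpifa6. IMQ replicate 2 kept 3.14% of Klk1, 33.4% of Pcp4, 18.3% of Insm1, 14.7% of Chgb and 17.2% of Bpifa6. Fcgbp stood at 0.857% and 7.04% of its control mean in these replicates and at up to 39.4% in Tcn2-/- IMQ replicate 2, where the 8 genes had 5 counts in sum.

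**Figure D3:**
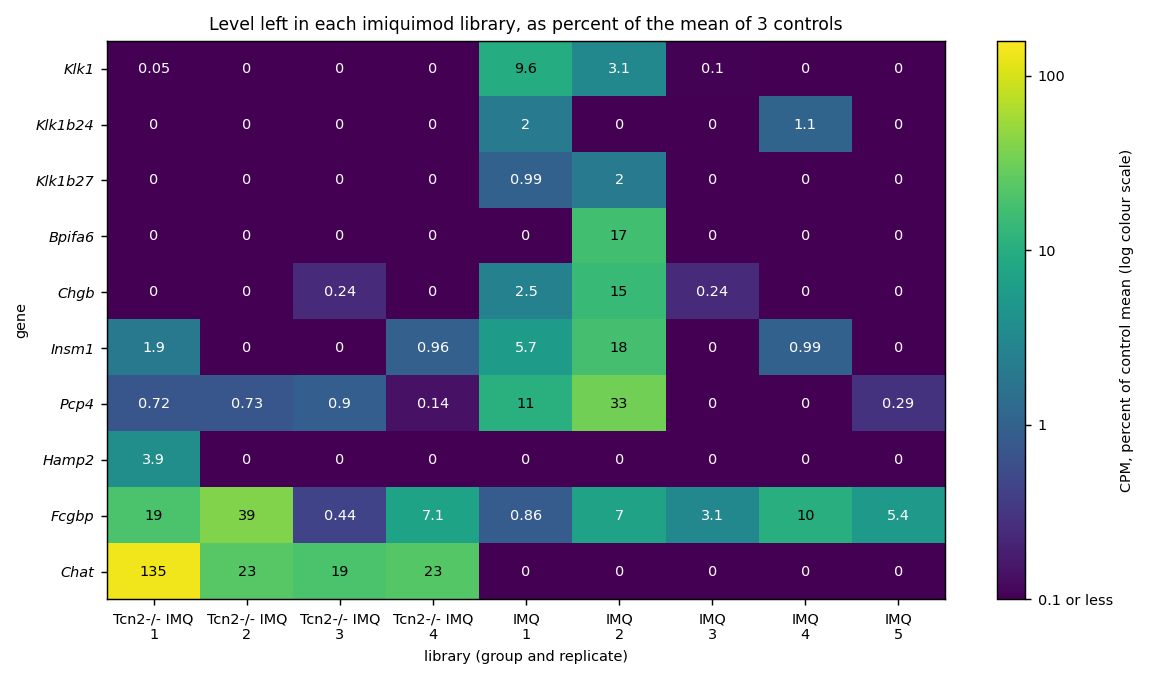
CPM of each gene in each Tcn2-/- IMQ and IMQ library as percent of the mean of the 3 control libraries (numbers in the cells, logarithmic colour scale). IMQ replicates 1 and 2 hold the residue of the upper genes, while Fcgbp and Chat have their highest values in Tcn2-/- IMQ replicates 2 and 1.

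Ratios of counts within a library, which need no scaling between libraries, put figures on this unequal loss. Klk1 had 17.6 counts for each Chgb count in IMQ replicate 1 (exact 95% interval 9.64 to 35.9) and 1.0 in IMQ replicate 2 (0.694 to 1.44), against 4.52, 2.97 and 6.64 in the control libraries. Klk1 over Pcp4 was 2.59 in IMQ replicate 1 (1.97 to 3.42) and 0.27 in IMQ replicate 2 (0.201 to 0.359), against 2.23, 2.47 and 4.05 in the control libraries. Pcp4 over Chgb was 6.82 in IMQ replicate 1 (3.6 to 14.2) and 3.7 in IMQ replicate 2 (2.79 to 4.97), against 2.02, 1.2 and 1.64 in the control libraries. Insm1 over Chgb was 0.545 in IMQ replicate 1 (0.166 to 1.61) and 0.302 in IMQ replicate 2 (0.17 to 0.51), against 0.149, 0.298 and 0.284 in the control libraries. Insm1 over Chgb thus had intervals that reach the control values in both replicates. Klk1 over Chgb lay outside the control values in both replicates and on opposite sides of them, Pcp4 over Chgb lay above them in both, and Klk1 over Pcp4 lay below them in replicate 2 only. The control libraries themselves differed, since the intervals of Klk1 over Chgb were 4.09 to 5.0, 2.67 to 3.31 and 5.99 to 7.37.

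IMQ replicates 1 and 2 also stood apart from IMQ replicates 3 to 5 in other genes. Far2 had 205 and 657 CPM in replicates 1 and 2 and 13.7, 41.9 and 23.2 CPM in replicates 3 to 5, against 813, 1450 and 1100 CPM in the control libraries. Lpo, a peroxidase of exocrine secretions, had 5.3 and 14.3 CPM in replicates 1 and 2 and 43.0, 38.6 and 58.0 CPM in replicates 3 to 5, against 0.33, 0.225 and 0.227 CPM in the control libraries. In both genes replicates 1 and 2 lay on the control side of their group, and the part of this in the residue of the 8 genes was not tested. IMQ replicate 1 was the only IMQ library with Xist counts, whereas IMQ replicate 2 had Y-linked counts. Within the 9 libraries with Y-linked counts, 10 of the 10 genes were lower in every IMQ library than in control replicate 1, the only control there, and 9 of the 10 were lower in every Tcn2-/- IMQ library, Chat being the exception.

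The comparison of Tcn2-/- IMQ with IMQ skin asks what the loss of Tcn2 adds to imiquimod, and in it none of the 10 genes passed the threshold. For 9 of them this is hardly a test: without the control libraries only Fcgbp passes the filter on low counts, so the others entered it through the group where they were high. With Benjamini-Hochberg adjustment, edgeR's quasi-likelihood test called 0 of the 10, against 0.0276% of all genes (0.022% lower and 0.00551% higher). At an unadjusted p below 0.05 there were 4 of the 10, against 2146 of the 18147 genes tested. DESeq2 called 2 of the 10, against 584 of all genes. Klk1, with 1 count over the Tcn2-/- IMQ libraries and 259 over those of IMQ, was 207-fold lower per TMM-scaled library size (exact 95% interval 36.8 to 8200, adjusted p = 0.227 in edgeR and 0.0323 in DESeq2). Chgb was 59.9-fold lower by counts (10.4 to 2400, adjusted p = 0.284 in edgeR), and Insm1 was 6.92-fold lower (2.12 to 35.7, adjusted p = 0.469 in edgeR). Pcp4 averaged 0.256 ± 0.136 CPM in Tcn2-/- IMQ skin (SD, n = 4) and 3.64 ± 5.92 CPM in IMQ skin (SD, n = 5), a log2 difference of -3.8 (SE 1.55, adjusted p = 0.367 in edgeR). Nearly all counts of these genes in IMQ skin came from replicates 1 and 2, and IMQ replicates 3 to 5 had at most 2 counts of each. The intervals leave out this spread between libraries. Bpifa6 was at least 2.93-fold lower, on 11 counts of a single IMQ library, and without IMQ replicate 2 neither group had a count.

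Fcgbp and Chat had positive differences in the same comparison. Fcgbp had a log2 difference of 1.63 (SE 0.87, adjusted p = 0.487 in edgeR), and the groups overlapped. Chat had 1.72, 0.298, 0.247 and 0.292 CPM in the Tcn2-/- IMQ libraries and 0 in each of the 5 IMQ libraries, so that its groups did not overlap. This was at least 18.0-fold higher against the floor of 3 counts over the IMQ group (adjusted p = 0.137 in edgeR and 0.000574 in DESeq2). Chat was picked for low counts in IMQ skin and passed edgeR's filter only through the control libraries, so neither p tests it. Of all genes tested, 1.71% were higher and 3.18% lower without overlap in this comparison. Tcn2-/- IMQ replicate 1, with 29 of the 43 Chat counts, also had the highest level of the acetylcholinesterase gene Ache (27.1 CPM, against 9.57 to 13.7 CPM in the other Tcn2-/- IMQ libraries). Slc5a7, the choline transporter of cholinergic neurons, did not share the library order of Chat, with 8, 58, 5 and 12 counts in the Tcn2-/- IMQ libraries, 1, 1, 6, 11 and 2 counts in the IMQ libraries and 113, 7 and 3 counts in the control libraries. Acta1, the skeletal muscle actin, was highest there too, at 11500 CPM. The part of muscle RNA in the Chat counts was not tested. Of the other 9 cholinergic genes, 8 had counts and 7 were tested, with 0 called in Tcn2-/- IMQ against IMQ skin by edgeR or DESeq2 and 1 at an unadjusted p below 0.05. In IMQ against control skin 6 of these 7 had a negative difference, at a median log2 difference of -0.85. There 0 were called by edgeR or DESeq2, and 2 had an unadjusted p below 0.05 in edgeR.

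Tcn2-/- IMQ skin against control skin is given as a description as well, since the genes had been picked for high counts in these same control libraries. The libraries did not overlap for 9 of the 10 genes, against 5.9% of all genes that were lower and 4.67% that were higher without overlap. The adjusted p was below 0.05 for 6 of the 10, against 1.31% of all genes (0.733% lower and 0.579% higher), and nothing is read from either count. By counts, Klk1 was 7880-fold lower in Tcn2-/- IMQ than in control skin (exact 95% interval 1410 to 311000). Klk1b24 and Klk1b27, with no count in the Tcn2-/- IMQ libraries, were at least 128-fold and 131-fold lower against the floor, and Bpifa6 was at least 83.7-fold lower. The kallikreins and Bpifa6 were thus at or within the floor in each Tcn2-/- IMQ library.

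Among the other genes, Chgb was 1690-fold lower by counts in Tcn2-/- IMQ than in control skin (303 to 66800), Insm1 136-fold lower (46.0 to 662) and Hamp2 102-fold lower (17.9 to 4090). Pcp4 had a log2 difference of -7.29 (SE 1.77). Fcgbp had a smaller log2 difference of -2.59 (SE 0.999), and its libraries did not overlap. Chat averaged 0.64 ± 0.723 CPM in Tcn2-/- IMQ skin (SD, n = 4) and 1.28 ± 0.724 CPM in control skin (SD, n = 3), with overlapping libraries and a log2 difference of -0.99 (SE 0.852).

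The genes had been grouped as those of a secretory gland, and markers of glands were set beside them. Of 25 salivary gland genes, 13 had no row under that symbol and were not analysed here, and the defining genes Bpifa2, Pip and Ren1 had no more than 3 counts in any library. The 12 with a row summed to 118 to 173 CPM in Tcn2-/- IMQ, 110 to 200 CPM in IMQ and 109 to 169 CPM in control libraries, with no separation of the groups. Most of this sum was Slc12a2, an ion cotransporter found in many tissues, at 84.5, 104 and 124 CPM in the control libraries, so the sum says little of the other salivary genes. Among the 8 tested in IMQ against control skin, 1 rose and 0 fell, with a median log2 difference of 0.82. The one that rose was Lpo (31.8 CPM in IMQ and 0.261 CPM in control skin, log2 difference 6.89, SE 1.08, adjusted p = 0.0148 in edgeR), opposite to the 10 genes. With so few salivary markers measured, no gland is named for the 10 genes here.

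Sweat gland and duct genes gave a mixed picture. Foxi1 and Bsnd, which mark the ion-transporting duct cells of several glands, had no more than 3 counts in any library. The 20 genes of the list with a row summed to 318 to 400 CPM in Tcn2-/- IMQ, 275 to 312 CPM in IMQ and 564 to 1730 CPM in control libraries. Of 16 tested in IMQ against control skin, 2 were called lower and 0 higher. Of the 16, 9 had a negative difference, at a median log2 difference of -0.16. Krt77 fell to 6.59 CPM in IMQ, against 952 CPM in control skin (log2 difference -7.17, SE 1.13, adjusted p = 0.0148 in edgeR), and Prlr, the prolactin receptor, fell to 28.6 CPM in IMQ, against 119 CPM in control skin (log2 difference -2.05, SE 0.413, adjusted p = 0.0381). Most of the summed level in control libraries was Krt77, at 287, 1250 and 1320 CPM. Scnn1g, of the same list, was not called and went the other way. It had 11.6 to 21.3 CPM in the IMQ libraries and 4.29 to 5.4 CPM in the control libraries. Among 8 myoepithelial genes, 2 had a negative difference in IMQ against control skin, the median log2 difference was 0.25, and the sums were 6190 to 21600 CPM in Tcn2-/- IMQ, 6810 to 16600 CPM in IMQ and 2820 to 4790 CPM in control libraries. Most of these sums was Krt5 and Krt14, keratins that are also on the epidermal list. In the control libraries Krt5 had 2360, 1270 and 1190 CPM and Krt14 had 2240, 1750 and 1270 CPM. The sums therefore say little of myoepithelial cells. The one myoepithelial gene called was Oxtr, the oxytocin receptor, which fell to 3.12 CPM in IMQ, against 42.5 CPM in control skin (log2 difference -3.76, SE 0.733, adjusted p = 0.0353 in edgeR). The part of sweat gland cells in the change of the 10 genes was not tested.

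Lists that share a role with single genes of the 10 were also measured. Of the 15 other mucus and goblet cell genes, Muc16, Tff1, Tff3, Zg16 and Retnlb had no more than 3 counts in any library, and of the 4 tested 0 were called in any comparison (2 had an unadjusted p below 0.05 in IMQ against control skin, and DESeq2 called 1). In IMQ against control skin 3 of these 4 had a negative difference, at a median log2 difference of -1.42. Clca1, a protein secreted by goblet cells, was one of them, with 17, 12, 1 and 1 counts in the Tcn2-/- IMQ libraries, 0, 0, 0, 4 and 2 counts in the IMQ libraries and 17, 28 and 41 counts in the control libraries (log2 difference of IMQ against control skin -4.35, SE 1.07, adjusted p = 0.0755 in edgeR). The 15 genes summed to 2.23 to 5.17 CPM in Tcn2-/- IMQ, 2.7 to 5.46 CPM in IMQ and 4.73 to 6.68 CPM in control libraries, far under the 224 to 261 CPM of Fcgbp in control libraries. The 17 other dense-core granule genes summed to 321 to 464 CPM in Tcn2-/- IMQ, 305 to 532 CPM in IMQ and 186 to 501 CPM in control libraries. Most of this was Cpe (136, 299 and 317 CPM in the control libraries) and Pam (42.5, 161 and 173 CPM). The sums therefore say little of the other granule genes. Among the 9 granule genes tested, 0 were called in IMQ against control skin by edgeR or DESeq2 and 1 had an unadjusted p below 0.05, and their median log2 difference was -0.02. Chga, which encodes the related granule protein chromogranin A, rose to 3.69 CPM in Tcn2-/- IMQ, against 0.786 CPM in control skin (log2 difference 2.22, SE 0.451, adjusted p = 0.0378 in edgeR). In that comparison 3 of the 9 granule genes tested had a negative difference. Pcsk1, of the same list, went the other way from Chga. It had 0, 0, 0 and 2 counts in the Tcn2-/- IMQ libraries, 2, 10, 4, 0 and 2 in the IMQ libraries and 6, 13 and 13 in the control libraries. The 15 Merkel cell genes summed to 18.6 to 49.3 CPM in Tcn2-/- IMQ, 15.4 to 41.0 CPM in IMQ and 25.9 to 29.6 CPM in control libraries. Of the 11 tested, 0 were called in IMQ against control skin by edgeR or DESeq2 or at an unadjusted p below 0.05. In that comparison 6 of the 11 had a negative difference, at a median log2 difference of -0.28. Krt8, also on the sweat gland list, had 0.758, 4.41, 0.242, 0.303 and 0.36 CPM in the IMQ libraries. Its control libraries had 3.24, 3.93 and 2.5 CPM.

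**Figure D4:**
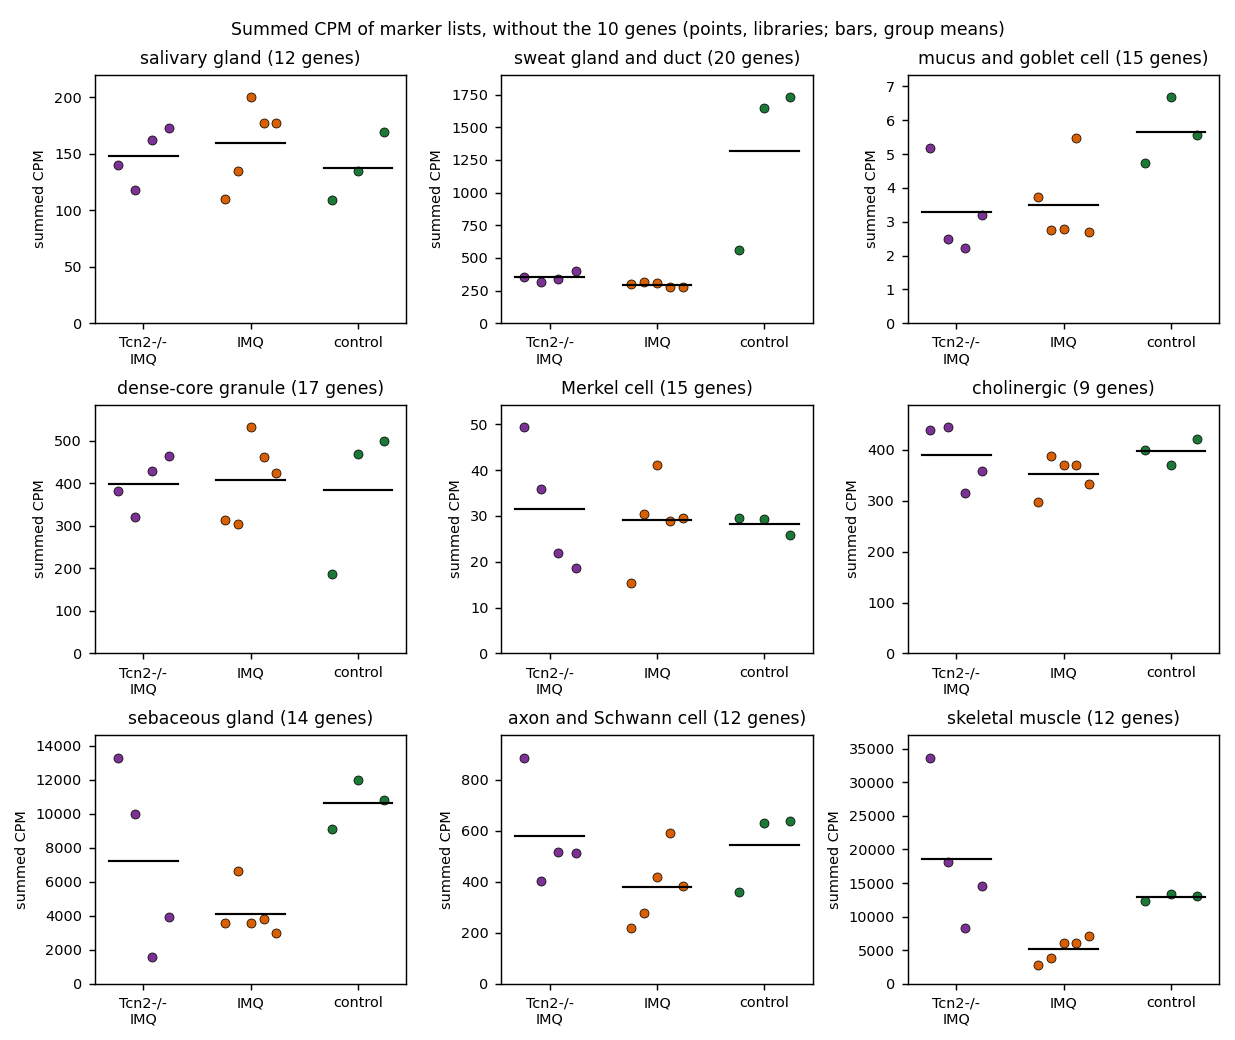
Summed CPM of 9 marker lists, without the 10 genes, in each library (points; bars, group means) for Tcn2-/- IMQ, IMQ and control. The sweat gland and duct sum is higher in the control libraries (564 to 1730 CPM), whereas the salivary, dense-core granule and Merkel cell sums overlap between the groups.

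Sebaceous genes were mostly lower in IMQ skin as well. Of 14 tested, 13 had a negative log2 difference in IMQ against control skin, with a median of -1.73. The test called 1 lower, 8 had an unadjusted p below 0.05, and DESeq2 called 4. The one called was Acsbg1, an acyl-CoA synthetase, at 102 CPM in IMQ and 340 CPM in control skin (log2 difference -1.74, SE 0.335, adjusted p = 0.035 in edgeR). Their sums were 1540 to 13300 CPM in Tcn2-/- IMQ, 2970 to 6630 CPM in IMQ and 9120 to 12000 CPM in control libraries. The sebaceous sums of Tcn2-/- IMQ replicates 1 and 2 thus reached the control level, and in these libraries the 8 genes summed to 9 and 5 counts. Most of these 2 sums was Scd1, at 8400 and 5440 CPM, against 4950, 6320 and 6700 CPM in the control libraries. Single genes differed. Mgst1 had 464 and 442 CPM in these replicates, under the 642 to 772 CPM of the control libraries. Soat1 had 805 and 690 CPM, over the 220 to 351 CPM of the control libraries. The sums therefore say little of the other sebaceous genes.

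The members' own likeness over the 12 libraries, on log2 CPM, was described by Pearson's r of each gene with the mean profile of the others. It was 0.882 to 0.969 for the 8 genes, highest for Klk1b27 (0.969) and Insm1 (0.967), and lower for Fcgbp (0.705) and Chat (0.593). These values follow largely from the gap between control and imiquimod libraries by which the genes were picked, and they carry no p. Among all other genes that passed the filter, the 12 nearest to the mean profile of the 10 had r of 0.95 to 0.971. Among them were Asgr1, Apol7a, Padi6, Otof, Flrt1, Gm5849, Klk1b21, Defb8, Gm12840 and Prss50.

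Of these, Asgr1, a lectin subunit known as the asialoglycoprotein receptor of liver, had 2, 0, 0 and 0 counts in the Tcn2-/- IMQ libraries, 4, 5, 1, 0 and 3 in the IMQ libraries and 104, 94 and 91 in the control libraries. Defb8, a beta-defensin, had no count in any Tcn2-/- IMQ library, 21, 45, 0, 0 and 0 counts in the IMQ libraries and 1310, 471 and 588 counts in the control libraries. Defb8 thus showed the residue in IMQ replicates 1 and 2 that the 8 genes had. Flrt1, a fibronectin leucine-rich repeat membrane protein, kept more of its level, with 29, 16, 25 and 41 counts in the Tcn2-/- IMQ libraries, 26, 52, 23, 32 and 17 counts in the IMQ libraries and 159, 196 and 271 counts in the control libraries. A high r over these libraries therefore did not require a near-complete loss.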

How the data were processed

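RNA of mouse skin was measured in 12 libraries. Per the labels' protocols, polyadenylated RNA was captured with oligo(dT) beads, fragmented, copied with random hexamers and amplified by PCR. The deposited values are raw counts per gene, whole numbers that the authors did not normalize. The genome build was GRCm39, per the submitters' processing notes. No source used here gives the aligner, the counter or the use of strand, so reads of overlapping genes and of near-identical kallikrein copies can be misassigned. Klk1 overlaps Gm10109 on the other strand, which had 12 counts in all.

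Groups and replicate numbers came from the titles, and 0 columns of sample values were left unmapped. The genes and lists were chosen with earlier results of these data known. Of the 33539 genes, filterByExpr kept 18147. Counts were fitted with edgeR 4.0.16 in R 4.3.3 (TMM factors, 1 quasi-likelihood model over all 12 libraries, 2-sided, Benjamini-Hochberg over all genes tested), and a gene was called at an adjusted p below 0.05. CPM used the TMM-scaled library sizes, and log2 CPM for likeness and principal components had a prior count of 2. The 12 nearest genes were ranked by Pearson's r. Some genes picked by these rules are not reported here. Of each list, up to 4 called genes were named, or the 2 with the highest mean CPM. Krt77, Tcn2, Xist and Ddx3y were checks. Far2, Ache, Slc5a7, Slc12a2, Clca1, Hamp, Slc18a3, Krt5, Krt14, Cpe, Pam, Pcsk1, Scd1, Mgst1, Soat1, Scnn1g and Krt8 were named after their values were seen. With 0 counts in a group, a fold was set against 3 counts over that group (the floor), and with 1 to 3 counts a ratio of counts with an exact 95% interval is given. Library totals of 16182324 to 18503487 counts leave values under 0.185 CPM within that floor.

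Exon lengths and transcript identities came from the GENCODE annotation of GRCm38 and promoters from RefSeq, while gene coordinates are those of the count table. Alternatives were other scaling factors (upper-quartile and RLE), DESeq2 1.42.0, other filters, 2-group fits, a replicate block, sex as a factor, only libraries with Y-linked counts, each library left out, and, chosen after seeing the data, control replicate 1 and Tcn2-/- IMQ replicate 2 left out together.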

Additional observations from a re-analysis of the deposited data

Results flagged for a closer look

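Of 15 sets of values examined (a gene in a group of 4 or 5 libraries), 6 had a library far from the others of its group by Dixon's test. For normally distributed values chance flags about 1 in 20. A set with counts in only 1 library is always flagged, so the 6 are not read against that rate. Chat stood at 1.72 CPM in Tcn2-/- IMQ replicate 1, and the next library of that group had 0.298 CPM. Chgb stood at 3.7 CPM in IMQ replicate 2, and the next library had 0.641 CPM. Bpifa6 stood at 0.646 CPM in IMQ replicate 2 and at 0 in the other IMQ libraries. The other 3 rest on 1 count each and are within the floor: Klk1 at 0.0594 CPM and Hamp2 at 0.0594 CPM in Tcn2-/- IMQ replicate 1, and Chgb at 0.0618 CPM in Tcn2-/- IMQ replicate 3.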

How the results depend on the processing

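For IMQ against control skin, 4 of the 10 genes and 223 of all genes were called. The number of the 10 was 0 with the replicate block and 0 with only libraries that had Y-linked counts, and it ranged from 0 to 7 with 1 library left out. Of all genes, 46 were called with the replicate block, 143 with sex as a factor, 0 with only Y-linked libraries, 541 with only those groups fitted, 1113 by DESeq2, and 8 to 397 with 1 library left out. For Tcn2-/- IMQ against IMQ skin, 0 of the 10 and 5 of all genes were called. DESeq2 called 2 of the 10, leaving out 1 library gave 0 to 0, and with only those groups fitted 1 of the 10 (Fcgbp) passed the filter and 0 were called, so these counts say little of the other 9. Of all genes, 17 were called without a filter, 0 with the replicate block, 30 with only Y-linked libraries, 42 with only those groups fitted, 584 by DESeq2, 51 without control replicate 1 and Tcn2-/- IMQ replicate 2, and 1 to 5 with 1 library left out. For Tcn2-/- IMQ against control skin, 6 of the 10 and 238 of all genes were called. The number of the 10 was 0 with the replicate block, 2 with sex as a factor, 0 with only Y-linked libraries, 3 without control replicate 1 and Tcn2-/- IMQ replicate 2, and 0 to 6 with 1 library left out. Of all genes, 20 were called with the replicate block, 27 with sex as a factor, 0 with only Y-linked libraries, 102 with only those groups fitted, 1047 by DESeq2, 396 without that pair of libraries, and 3 to 428 with 1 library left out. Without control replicate 3, 0 of the 10 were called in either comparison with control skin, and without control replicate 2 it was 2 in each, while without IMQ replicate 2 it was 7 in IMQ against control skin. Without Tcn2-/- IMQ replicates 1, 3 and 4 in turn it was 3, 2 and 2 in Tcn2-/- IMQ against control skin. The counts of all genes in these fits lie within the ranges given above, and nothing is read from the counts of the 10. Same-numbered libraries deviated together in 5 of 10 pairs (correlations -0.531 to 0.419), so the numbers do not pair the samples. Chat in Tcn2-/- IMQ against control skin turned to 0.42 with sex as a factor and to 0.47 with only Y-linked libraries. The cause of these changes was not tested. With 3 control libraries, of which 1 had Y-linked counts, the fit of only Y-linked libraries rests on 1 control library, and sex as a factor sets control replicates 2 and 3 against IMQ replicate 1 alone among the Xist libraries. Values under the floor of 3 counts limit what can be said of Klk1b24, Klk1b27 and Hamp2 after imiquimod.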

Other observations

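Gene lists for other cell types that skin can hold were set beside the 10 genes. Of 11 epidermal genes tested, Krt1, a keratin of differentiating epidermis, rose to 6180 CPM in IMQ, against 480 CPM in control skin (log2 difference 3.69, SE 0.781, adjusted p = 0.0447 in edgeR). Krt15, a keratin of basal and follicle stem cells, fell to 116 CPM in IMQ, against 748 CPM in control skin (log2 difference -2.69, SE 0.431, adjusted p = 0.0166 in edgeR). The 9 other tuft cell genes, named for the cells that use Chat in mucosa, summed to 116 to 158 CPM in Tcn2-/- IMQ, 131 to 170 CPM in IMQ and 89.4 to 158 CPM in control libraries, and 0 of 6 tested were called in IMQ against control skin (0 by DESeq2 and 0 at an unadjusted p below 0.05). The 9 other hepcidin and iron genes summed to 303 to 336 CPM in Tcn2-/- IMQ, 302 to 369 CPM in IMQ and 287 to 325 CPM in control libraries, and 0 of 7 tested were called in it (0 by DESeq2 and 2 at an unadjusted p below 0.05). The 12 axon and Schwann cell genes summed to 403 to 888 CPM in Tcn2-/- IMQ, 220 to 592 CPM in IMQ and 361 to 638 CPM in control libraries, and 0 of 8 tested were called in it (1 by DESeq2 and 2 at an unadjusted p below 0.05). Of 9 mammary gland genes with a row, 4 were tested and 0 were called in it (1 by DESeq2 and 1 at an unadjusted p below 0.05). Of the 5 lacrimal and preputial gland genes with a row, the one called was Tcn2 itself, a gene these glands express, which is lower in the libraries labelled Tcn2-/-.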
